A study of Mus musculus with 27 samples.

Results

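The Nodal, BMP and TGF-beta pathway was followed as a set of 47 genes out of the 51826 genes counted in the series. The members were listed by symbol and found by matching the gene identifiers of all 27 count files, without their version, to GENCODE mouse release 21. The listed genes cover ligands, coreceptors, secreted antagonists, receptors, Smad proteins and direct targets. The cells were mouse embryonic stem cells of E14 background in 3 lines: wild type, a line in which Quaking (gene Qk) was knocked out (KO), and a line labelled Sam68 KO (gene Khdrbs1). Quaking and Sam68 are STAR proteins, RNA-binding proteins whose part in early mammalian development the series set out to examine. Each line was sampled at day 0 as stem cells and at days 3 and 10 as embryoid bodies, cell aggregates that differentiate, with 3 libraries labelled as biological replicates in each of the 9 groups. Both knockouts were compared with the same wild-type libraries, and each knockout was 1 line, so a clone and its knockout cannot be told apart. Library numbers of the Sam68-labelled samples form a block of their own, so for that line a difference of library preparation and the label cannot be told apart. Adjusted p-values measure the spread between these samples only.

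Ligands of this family are secreted dimers that bring together type I and type II receptor kinases, which phosphorylate Smad proteins. Nodal, activin and TGF-beta ligands signal through Smad2 and Smad3 and bone morphogenetic proteins (BMPs) through Smad1 and Smad5, and both kinds then join Smad4 and enter the nucleus. In the early mouse embryo Nodal keeps the epiblast in its state and, with its coreceptor Cripto (gene Tdgf1), patterns the primitive streak. Nodal induces its own inhibitors Lefty1 and Lefty2, and BMP signalling from extraembryonic tissue acts on the epiblast and induces the Id genes.

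RefSeq promoter windows, 250 bases before a transcript's start on GRCm38.p6, were at hand for 31 of the 47 members (36 windows). The 4 printed here belong to genes on which the wild-type time course turns. Inhbb and Bmp4 fell most from day 0 to day 3, and Nodal and Tdgf1 fell together from day 3 to day 10. The Nodal window lies at chr10:61417722-61417971 (+ strand), the Tdgf1 window at chr9:110946159-110946408 (− strand), the Bmp4 window at chr14:46390670-46390919 (− strand) and the Inhbb window at chr1:119422249-119422498 (− strand). Each is written 5′ to 3′ on the gene's strand. Capitals mark GTCT, the Smad box, or its reverse complement AGAC, and AATNNACA, a FOXH1 core, all searched on both strands.
Nodal: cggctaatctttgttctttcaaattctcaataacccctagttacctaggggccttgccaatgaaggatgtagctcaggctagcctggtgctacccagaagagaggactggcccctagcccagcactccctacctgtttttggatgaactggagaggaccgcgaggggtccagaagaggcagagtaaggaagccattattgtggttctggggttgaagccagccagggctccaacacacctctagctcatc
Tdgf1: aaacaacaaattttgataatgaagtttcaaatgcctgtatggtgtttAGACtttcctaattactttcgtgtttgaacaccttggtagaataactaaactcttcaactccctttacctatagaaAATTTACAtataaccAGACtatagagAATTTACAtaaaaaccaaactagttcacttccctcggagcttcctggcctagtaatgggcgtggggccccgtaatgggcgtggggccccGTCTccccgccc
Bmp4: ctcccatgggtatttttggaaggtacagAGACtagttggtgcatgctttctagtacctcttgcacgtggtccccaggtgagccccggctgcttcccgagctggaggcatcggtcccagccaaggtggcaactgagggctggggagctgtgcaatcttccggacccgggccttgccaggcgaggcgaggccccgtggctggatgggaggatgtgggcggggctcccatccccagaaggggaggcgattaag
Inhbb: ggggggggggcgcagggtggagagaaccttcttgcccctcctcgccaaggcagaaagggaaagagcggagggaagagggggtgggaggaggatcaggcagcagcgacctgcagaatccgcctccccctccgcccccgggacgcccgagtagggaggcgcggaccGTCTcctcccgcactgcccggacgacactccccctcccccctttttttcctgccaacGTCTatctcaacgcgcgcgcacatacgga
The Tdgf1 window held 3 Smad boxes and 2 FOXH1 cores, the Inhbb window 2 boxes, the Bmp4 window 1, and the Nodal window none of these letters. GTCT or its complement lay in 30 of the 36 member windows and in 82.9% of all 32851 RefSeq windows of this length. AATNNACA lay in 1 of the 36 and in 10.9% of all windows. GGCGCC, a BMP Smad site, lay in 9 of the 36 and in 9.6% of all windows. These matches describe the letters and not binding.

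Some members share sequence with other genes, which can move counts between them. Lefty1 and Lefty2 are closely related neighbours on chromosome 1, at 180935022 to 180938400 and 180893108 to 180899103 on GRCm38. Of the 50-base windows of Lefty1, 17.9% also occurred in Lefty2, and for Lefty2 12% were shared with other genes. Counts of these 2 genes could therefore be split by the counting program, and their levels are uncertain to that extent. The same holds for Bmp5 (46% shared), Cfc1 (24.3%) and Tdgf1 (8.86%). Gdf1 lies wholly within exons of Cers1 on the same strand and had no count in any of the 27 libraries. It enters no test.

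Library totals ran from 56.5 to 77.3 M counts, and replicates of a group correlated at r = 0.992 to 0.999 across genes on the log scale, a description in which genes are not replicates. Qk was lower in the Quaking KO libraries at all 3 days but was not lost (118 to 204 CPM against 227 to 267 in wild type, group means). Khdrbs1 stood at 91.4 to 101 CPM in the libraries labelled Sam68 KO and at 98.8 to 160 in wild type, and was called lower at day 3 only, so its counts do not check that label. Day 0 libraries carried the stem cell markers: 6 naive-state genes summed to 1812 to 1908 CPM in wild type, 2347 to 2403 in Quaking KO and 1473 to 1477 in Sam68-labelled libraries, and to 299 or less in every library of day 3 or 10. The mitochondrial ribosomal RNA mt-Rnr2 took 5.64% to 14.77% of all counts. At day 3 it took 9.53% and 10.96% in replicate 1 of wild type and Quaking KO, 5.64% to 6.54% in replicates 2 and 3 of both, and 10.65% to 11.1% in the Sam68-labelled libraries; its part in the results was not tested.

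Members were compared as CPM (counts scaled to a common library size, with TMM factors over all libraries, given for replicates 1, 2 and 3 in that order) and tested with edgeR's quasi-likelihood test across all genes. A gene was called higher or lower at a Benjamini-Hochberg adjusted p under 0.05, and differences are log2 fold changes (log2FC) ± SE, n = 3 per group. Per kilobase of exon, which allows levels of different genes to be compared, Tdgf1 was the highest member in wild type at day 0 (322 CPM per kb) and day 3 (269 CPM per kb). It was followed at day 0 by Id1 (52.1 CPM per kb), the BMP-induced inhibitor of differentiation factors, and by the ligands Gdf3 (45.9), Nodal (33.3) and Bmp4 (31.6). At day 3 the next levels per kb were those of Lefty1 (109), Nodal (73.2), the activin antagonist Fst (61.6) and Lefty2 (40.8). At day 10 the highest levels per kb were those of Id3 (50), Id1 (47.9), Id2 (46.4), the BMP receptor Bmpr1a (41.7) and Smad4 (35.9), while Tdgf1 stood at 11.1 and Nodal at 3.56 CPM per kb. The map of all members by library shows this exchange in each line.

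**Figure D1:**
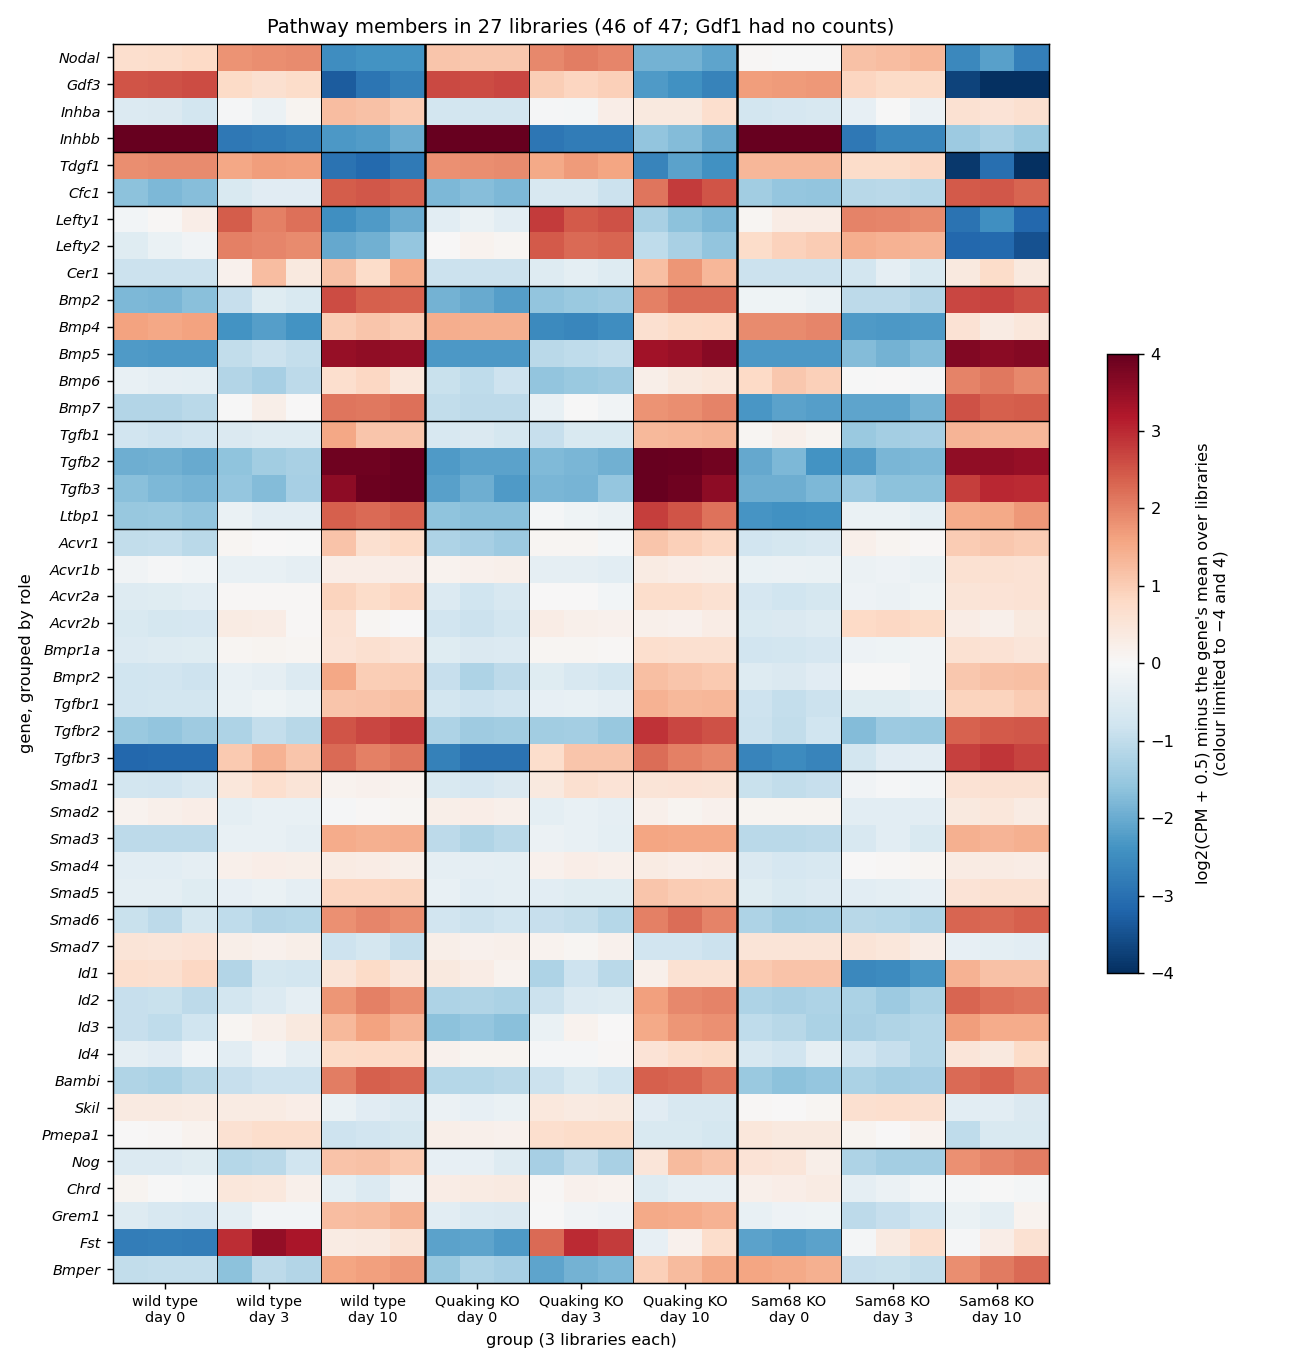
Each row is 1 of the 46 members with counts, grouped by role, and each column 1 of 27 libraries ordered by line and day. Colour gives log2(CPM + 0.5) minus the gene's mean over libraries, limited to −4 and 4. Nodal, Lefty1 and Lefty2 are highest at day 3 and lowest at day 10 in all 3 lines, and Inhbb is high at day 0 alone.

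Embryoid body formation in wild-type cells was accompanied by a rise of Nodal and its inhibitors and by a fall of Bmp4, activin B and Id1. From day 0 to day 3, 30 members were called higher and 10 lower of 46 tested, where 30.8% of all genes were called higher and 30.1% lower (60.9% in all). The median member log2FC was 0.60, against 0.01 over all genes tested. Nodal measured 67.7, 68.4 and 73 CPM at day 0 and 147, 155 and 158 at day 3 (log2FC 1.16 ± 0.06, adjusted p = 9.87e-10). All day 3 libraries lay above all day 0 libraries. Other Nodal-type ligands fell: Gdf3 went from 109, 110 and 115 CPM to 32, 29.2 and 30.8 (−1.84 ± 0.11, adjusted p = 6.97e-09). Inhbb, the activin B subunit, went from 84.3, 88.4 and 89.4 CPM to 0.0925, 0.118 and 0.164 (−9.41 ± 0.15, adjusted p = 1.31e-13). This was the largest fall of any member, and the groups did not overlap. Inhba, the activin A subunit, was called higher but reached 0.387 CPM at most at day 3.

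The inhibitors Lefty1 and Lefty2, which bind Nodal and its coreceptor, rose together with Nodal. Lefty1 went from 38.2, 42.1 and 49.4 CPM to 222, 166 and 189 (2.18 ± 0.13, adjusted p = 7.67e-09), and Lefty2 from 19.1, 22.5 and 24.4 to 111, 106 and 102 (2.30 ± 0.12, adjusted p = 1.51e-09). Both genes were higher in every day 3 library. Cer1, a secreted antagonist of Nodal and BMPs, had no count at day 0 in any line and reached 0.524, 1.67 and 0.699 CPM at day 3 in wild type. The coreceptor Tdgf1 was lower by a small margin, 671 to 730 CPM at day 3 against 828 to 855 (−0.24 ± 0.07, adjusted p = 0.0117), and lost its call without replicate 1 of wild type at day 3.

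In the BMP branch Bmp4 fell from 71.8, 69.4 and 71.8 CPM to 4.02, 4.72 and 4.07 (−4.03 ± 0.08, adjusted p = 3.34e-13). No day 3 library came near the day 0 level. Id1 fell with it, from 58.8, 57.6 and 64.9 CPM to 16.1, 22.3 and 22 (−1.56 ± 0.11, adjusted p = 5.26e-08). The remaining Id genes did not follow: Id2 and Id3 rose (0.45 ± 0.10 and 1.18 ± 0.10), and Id4 was not called (0.02 ± 0.14). Fst, follistatin, which binds activins and BMPs, rose from 3.83, 3.94 and 3.84 CPM to 229, 334 and 285 (6.21 ± 0.14, adjusted p = 7.58e-13). Of the other 4 BMP antagonists, Chrd and Grem1 were called higher and Nog lower; the Chrd call was lost without replicate 1 of wild type at day 3.

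Receptors rose more often than they fell, with 8 of 9 called higher and Acvr1b, a type I receptor of Nodal and activin, called lower (−0.20 ± 0.06, adjusted p = 0.0063; not called without replicate 3 of wild type at day 3). The largest receptor change was that of Tgfbr3, betaglycan, a coreceptor for TGF-beta2 and inhibin. It went from 3.21, 3.29 and 3.32 CPM to 67, 85.6 and 70.7 (4.53 ± 0.11, adjusted p = 1.25e-12). Smad1, which carries BMP signals, rose from 28.6, 27.8 and 30.4 to 64.8, 76.5 and 67.6 CPM (1.29 ± 0.07, adjusted p = 2.19e-09), and Smad2, which carries Nodal signals, fell by 0.51 ± 0.06. Ltbp1, which anchors latent TGF-beta in the matrix, rose from 10.8 to 11.6 CPM at day 0 to 24.5 to 27.8 at day 3 (1.22 ± 0.07, adjusted p = 5.35e-09). Tgfb1 (0.31 ± 0.12, adjusted p = 0.0434) kept no call when single libraries of days 0 or 3 were left out in turn. Of 57 further genes of the pathway, 52 were tested, 25 called higher and 14 lower. They included Pcsk6, a convertase that processes Nodal (89.1 to 11.3 CPM, −2.96 ± 0.08), the latent TGF-beta binding protein Ltbp4 (140 to 28.8, −2.26 ± 0.09) and the BMP coreceptor Rgmb (4.56 to 20.5, 2.19 ± 0.09).

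Markers of other cell types moved in the same interval: 6 primitive streak markers summed to 5.05 to 5.61 CPM at day 0 and 539 to 813 at day 3 (6 of 6 called higher), and 8 extraembryonic endoderm markers to 73 to 78.5 and 241 to 264 (6 higher, 1 lower). Their part in the member changes was not tested. In bulk RNA, here and below, fewer cells of a type and less RNA per cell cannot be told apart.

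**Figure D2:**
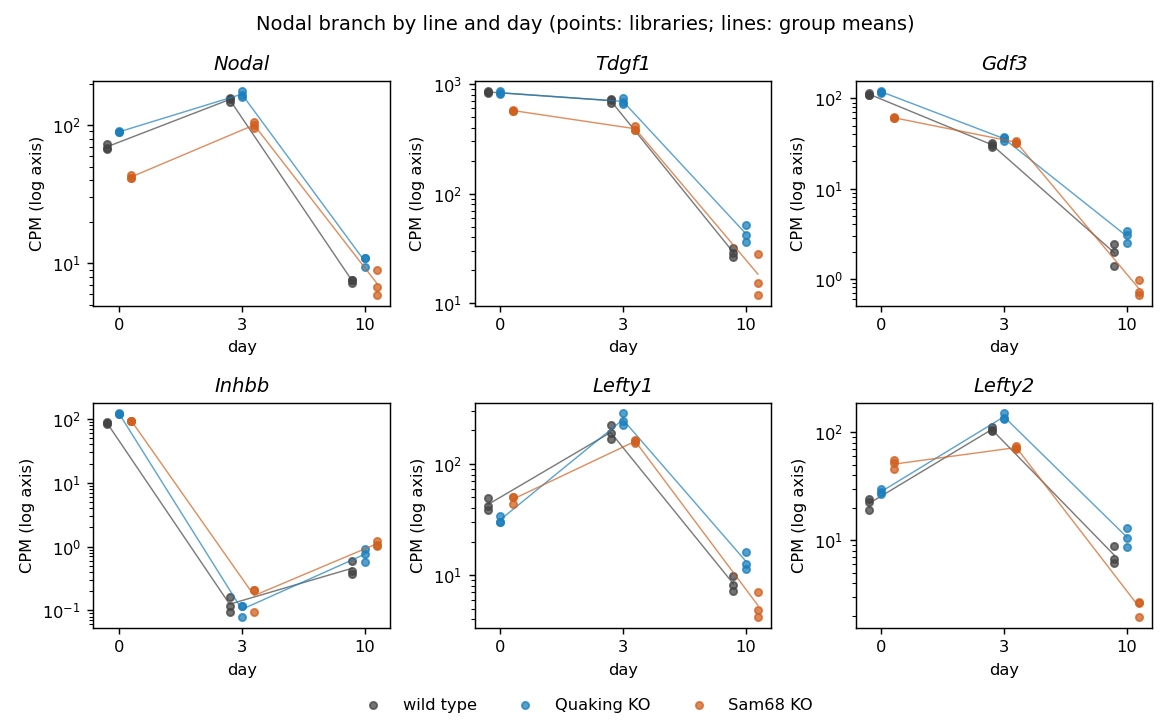
CPM on a log axis against day for Nodal, its coreceptor Tdgf1, the ligands Gdf3 and Inhbb and the inhibitors Lefty1 and Lefty2. Points are libraries and lines join group means of wild type, Quaking KO and the line labelled Sam68 KO. Nodal, Lefty1 and Lefty2 peak at day 3 in all 3 lines, and Sam68-labelled Tdgf1 lies below the other lines at days 0 and 3.

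Between day 3 and day 10 Nodal, its coreceptor Tdgf1 and the Lefty genes fell, and BMP and TGF-beta ligands rose, in wild type. Of 46 members tested, 32 were called higher and 11 lower (39.6% and 36.5% of all genes, 76.1% in all), with a median log2FC of 1.34 against 0.02 over all genes. Nodal fell from 147, 155 and 158 CPM to 7.19, 7.6 and 7.59 (−4.35 ± 0.07, adjusted p = 3.27e-14), and Tdgf1 from 671, 730 and 714 to 29, 26.2 and 32 (−4.59 ± 0.09, adjusted p = 1.02e-13). Lefty1 fell to 7.14, 8.11 and 9.87 CPM (−4.51 ± 0.15, adjusted p = 1.03e-11) and Lefty2 to 6.22, 6.72 and 8.86 (−3.86 ± 0.13, adjusted p = 1.17e-11). Day 10 libraries of these 4 genes lay below all day 3 libraries. Gdf3 also fell (−3.97 ± 0.13). Cfc1, the coreceptor Cryptic that acts in left-right patterning, rose instead, from 0.678, 0.808 and 0.818 CPM to 9.22, 9.5 and 8.99 (3.59 ± 0.14, adjusted p = 4.91e-11).

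All 5 BMP ligands and all 4 members of the TGF-beta ligand and matrix group were called higher at day 10. Bmp4 returned to 46.4, 50.8 and 47.4 CPM (3.51 ± 0.08, adjusted p = 3.27e-13). Bmp5, a ligand of mesenchyme, went from 0.755, 0.867 and 0.788 to 27.3, 28.3 and 27.9 CPM (5.12 ± 0.11, adjusted p = 2.8e-13). Tgfb2 rose from 0.94, 1.15 and 1.26 CPM to 63.7, 63.8 and 68.9 (5.88 ± 0.10, adjusted p = 5.08e-14). Groups did not overlap for any of these 3 ligands. Tgfb3 rose most of all members (6.65 ± 0.21), from 0.25 to 0.506 CPM at day 3 to 29.5 to 44.2 at day 10.

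On the receiving side 8 of 9 receptors were called higher. Tgfbr2, the type II receptor of TGF-beta, went from 4.48, 5.49 and 4.94 CPM to 65.8, 73.7 and 81 (3.90 ± 0.10, adjusted p = 1.39e-12). Smad3 rose from 33.9, 34.3 and 32.4 to 118, 114 and 115 CPM (1.80 ± 0.05, adjusted p = 4.75e-12), Smad2 and Smad5 rose by less (0.36 ± 0.06 and 1.21 ± 0.06), and Smad1 fell by 0.40 ± 0.07. Smad4, the shared partner, was not called (0.08 ± 0.05, adjusted p = 0.159), and was called higher with RLE scaling, with a mean of at least 1 CPM required, and by DESeq2.

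Among targets and feedback inhibitors, all 4 Id genes, the pseudoreceptor Bambi and the inhibitory Smad6 were called higher, and Smad7, Skil and Pmepa1, which restrain TGF-beta and Nodal signalling, lower. Id1 returned from 16.1, 22.3 and 22 to 52.1, 62.8 and 51.8 CPM (1.48 ± 0.11, adjusted p = 5.42e-08). Bambi went from 13.1, 14 and 14.2 CPM to 106, 136 and 130 (3.18 ± 0.10, adjusted p = 5.29e-12) and Smad6 from 4.81, 4.27 and 4.39 to 37.2, 40.4 and 38 (3.11 ± 0.10, adjusted p = 6.84e-12). Ltbp1 reached 176, 163 and 176 CPM (2.75 ± 0.07, adjusted p = 1.06e-12). In the wider pathway list 32 genes were called higher and 10 lower of 52 tested. They included Acvrl1, an endothelial receptor (0.355 to 19.3 CPM, 5.77 ± 0.13), the convertase Pcsk5 (0.687 to 23.4, 5.09 ± 0.12) and Foxh1, the DNA-binding partner of Nodal Smads (98.1 to 15.6, −2.64 ± 0.06). Markers of connective tissue rose from 15.6 to 21 CPM in sum at day 3 to 5944 to 7738 at day 10, and those of heart muscle from 5.56 to 5.81 to 856 to 887, with 6 of 6 called higher in each list. Core pluripotency markers fell from 1272 to 1360 CPM in sum at day 3 to 68.2 to 84.5 (3 of 3 called lower) and primitive streak markers from 539 to 813 to 28.6 to 40.1 (5 of 6 lower). The part of these lists in the member changes was not tested.

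**Figure D3:**
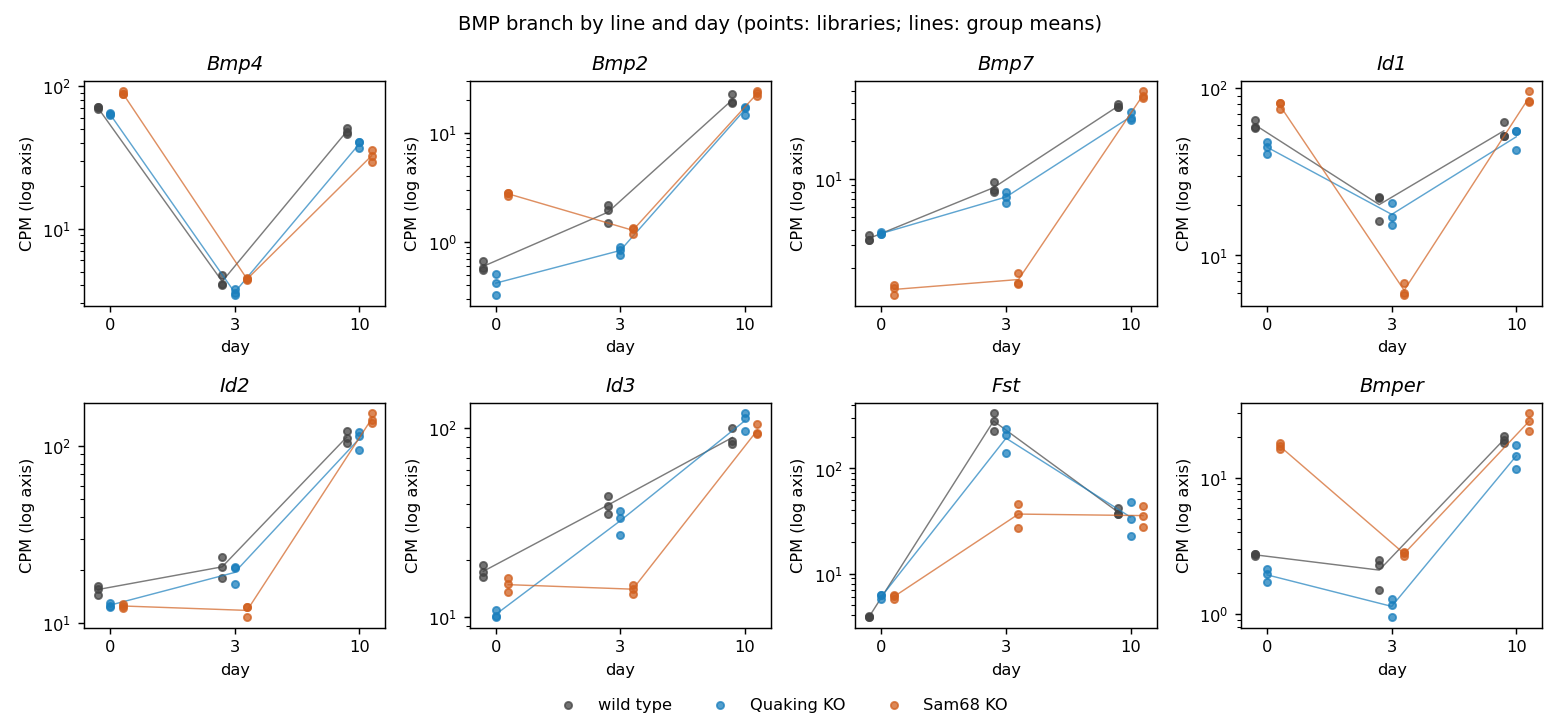
CPM on a log axis against day for 3 BMP ligands, 3 Id genes and the antagonists Fst and Bmper. Points are libraries and lines join group means of wild type, Quaking KO and the line labelled Sam68 KO. Bmp4 and Id1 dip at day 3 in all 3 lines, and the Sam68-labelled libraries stand at the bottom for Id1, Id2, Id3 and Fst on that day.

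The first question put to the Quaking KO line was whether the pathway differed before differentiation. In stem cells 9 members were called higher and 15 lower of 42 tested, where 39.7% of all genes were called (19.4% higher, 20.3% lower). The median log2FC was −0.00 (0.00 over all genes), and the median size without sign was 0.24, against 0.18 over all genes. Tgfb3, at under 0.3 CPM, was the 1 called member past 2-fold. Nodal was higher at 91.1, 88.9 and 88.5 CPM against 67.7, 68.4 and 73 in wild type (0.35 ± 0.03, adjusted p = 1.37e-07). Inhbb was higher at 123, 120 and 121 CPM against 84.3, 88.4 and 89.4 (0.46 ± 0.03, adjusted p = 5.78e-10). The groups did not overlap for either ligand. The 2 Lefty genes moved apart. Lefty1 was lower at 30.2, 34.2 and 30.1 CPM against 38.2, 42.1 and 49.4 (−0.47 ± 0.07, adjusted p = 4.9e-05). Lefty2 was higher at 27.1, 29.7 and 28.2 CPM against 19.1, 22.5 and 24.4 (0.35 ± 0.07, adjusted p = 0.000721). Their shared sequence, described above, limits how far the 2 can be read apart. Acvr1b was higher (46.4 to 48.5 CPM against 38.5 to 40.6; 0.26 ± 0.03, adjusted p = 8.77e-06).

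Of 4 BMP ligands tested in the same cells Bmp4 and Bmp6 were called lower, and 3 of the 4 Id genes were lower. Bmp2 (−0.53 ± 0.21, adjusted p = 0.0516) and Bmp7 (0.12 ± 0.09, adjusted p = 0.322) were not called. Bmp4 measured 64.4, 63.5 and 62.9 CPM against 71.8, 69.4 and 71.8 (−0.17 ± 0.03, adjusted p = 0.000264), and Bmp6 1.25, 1.1 and 1.33 against 2.13, 2.04 and 1.98 (−0.76 ± 0.13, adjusted p = 0.000132). Id1 was lower at 47.8, 44.7 and 40.5 CPM against 58.8, 57.6 and 64.9 (−0.46 ± 0.05, adjusted p = 1.22e-06). Each Quaking KO library lay below each wild-type library for these 3 genes. Id3 was lower at 10.2, 10.9 and 9.99 CPM against 17.4, 16.3 and 18.9 (−0.78 ± 0.07, adjusted p = 2.14e-08), Id2 was also lower (−0.31 ± 0.05), and Id4 was higher (0.50 ± 0.13). The feedback inhibitor Skil, a Smad corepressor, stood at 155, 144 and 153 CPM against 235, 233 and 230 (−0.64 ± 0.03, adjusted p = 2.83e-11). This was the smallest adjusted p of any member here, and the groups did not overlap. Smad7 was lower too (87.6 to 91.4 CPM against 108 to 112; −0.31 ± 0.03, adjusted p = 1.32e-07), and Fst was higher (5.69 to 6.26 against 3.83 to 3.94; 0.63 ± 0.07, adjusted p = 1.53e-06).

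The 5 signal-carrying Smads lay between −0.07 and 0.07 on the log2 scale, with none called by edgeR, none at an unadjusted p under 0.05 and none called by DESeq2. Of the other pathway genes 10 were called higher and 11 lower of 45 tested. Gdf15, a stress-induced ligand, was higher (12.5 against 6.74 CPM; 0.87 ± 0.07, adjusted p = 9.75e-09), as were Fstl1 (114 against 93.9; 0.27 ± 0.03) and Pcsk6 (109 against 89.1; 0.28 ± 0.03). All 6 naive-state markers were called higher and extraembryonic endoderm markers summed to 51.2 to 54 CPM against 73 to 78.5 (4 of 5 tested called lower); their part was not tested. Calls of Ltbp1, Acvr2a, Acvr2b, Tgfb3, Tgfbr3 and Pmepa1 were each lost when at least 1 library was left out. Those of the members given above with their values in each library were not.

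At day 3, when the primitive streak genes were expressed, 3 members were called higher and 4 lower in Quaking KO of 46 tested (3.08% and 3.93% of all genes, 7.01% in all). The median was −0.09 against 0.01 over all genes. The labels state no pairing, but same-numbered libraries of this comparison deviated together (r = 0.54, 0.23 and 0.17), so the number was taken to pair them. With the number as a block 14 members were called, 4 higher and 10 lower. Over all genes the main fit called 1381, and the settings that left out no single library called 1002 to 1891. Other counts and adjusted p-values of this comparison are without the block unless it is named. Both Lefty genes were higher. Lefty1 measured 285, 225 and 241 CPM against 222, 166 and 189 (0.38 ± 0.09, adjusted p = 0.0196; 0.000254 with the block), and Lefty2 150, 132 and 137 against 111, 106 and 102 (0.39 ± 0.05, adjusted p = 0.000194; 4.47e-06 with the block). Quaking KO was above wild type in every library of both genes. Nodal itself was not called, at 161, 176 and 166 CPM against 147, 155 and 158 (0.13 ± 0.05, adjusted p = 0.129; 0.0513 with the block). Gdf3 was higher at 37.4, 33.9 and 36 CPM against 32, 29.2 and 30.8 (0.22 ± 0.05, adjusted p = 0.0189). Cer1 was lower at 0.139 to 0.203 CPM against 0.524 to 1.67 (−2.56 ± 0.46, adjusted p = 0.00265), a gene near the bottom of detection.

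Bmp2, a ligand for Bmpr1a and Bmpr2, was lower at 0.757, 0.853 and 0.905 CPM against 1.51, 2.17 and 1.96 (−1.17 ± 0.16, adjusted p = 0.0003). Bmper, an extracellular BMP modulator, was lower at 0.943, 1.17 and 1.3 CPM against 1.51, 2.51 and 2.29 (−0.89 ± 0.18, adjusted p = 0.00587). Tgfbr2 was lower at 3.89, 3.99 and 3.61 CPM against 4.48, 5.49 and 4.94 (−0.38 ± 0.11, adjusted p = 0.0437). None of these 3 overlapped between the lines. Bmp4 (3.41 to 3.77 CPM against 4.02 to 4.72; −0.26 ± 0.09, adjusted p = 0.117) and Id1 (15.3 to 20.5 against 16.1 to 22.3; −0.20 ± 0.12, adjusted p = 0.372) were not called. None of the 9 feedback targets was called by edgeR without the block, with 2 at an unadjusted p under 0.05 and 1 called by DESeq2. With the block Id3 was called among them, and Fst, Smad5, Bmpr2, Tgfbr3, Tgfb2 and Ltbp1 were the other members gained. In the wider list 2 of 46 genes were called, both lower: Bmp1, the protease that cleaves chordin (12.6 against 17.6 CPM; −0.48 ± 0.08, adjusted p = 0.00152), and Bmpr1b (2.32 against 3.12; −0.43 ± 0.10, adjusted p = 0.0173).

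Single libraries decided several of these day 3 calls, in fits without the block. Gdf3 lost its call without replicate 1 or 3 of Quaking KO or replicate 2 or 3 of wild type (log2FC 0.18 to 0.22, adjusted p = 0.0584 to 0.1), and Lefty1 without replicate 1 of Quaking KO or replicate 2 or 3 of wild type (0.26 to 0.36, adjusted p = 0.0662 to 0.0985). Tgfbr2 lost its call without any library but replicate 1 of wild type (−0.30 to −0.41, adjusted p = 0.0639 to 0.197), and Bmpr1b without replicate 3 of either line. Without replicate 1 of wild type Id1 was called lower (−0.34, adjusted p = 0.038). Extraembryonic endoderm markers summed to 103 to 123 CPM in Quaking KO and 241 to 264 in wild type (6 of 8 called lower, none at 0). Streak markers summed to 358 to 612 and 539 to 813, with 0 of 6 called in either direction. The part of both lists was not tested.

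At day 10 Quaking KO had 2 members called higher and 4 lower of 46 tested (4.96% and 6.71% of all genes, 11.7% in all), with a median of 0.02 against −0.02 over all genes. BMP ligands made up 3 of the 4 lower calls. Bmp2 measured 14.8, 17.3 and 17.1 CPM against 22.6, 19.4 and 18.7 (−0.33 ± 0.09, adjusted p = 0.0483). Bmp4 measured 36.7, 40.4 and 40.9 against 46.4, 50.8 and 47.4 (−0.32 ± 0.08, adjusted p = 0.0242). Bmp7 measured 29.2, 30.5 and 33.8 against 37.3, 36.9 and 39.3 (−0.30 ± 0.07, adjusted p = 0.0211). Quaking KO libraries were below wild type throughout for all 3. Smad1, which with Smad5 carries BMP signals, was higher at 68.7, 69.4 and 68.2 CPM against 52, 53.4 and 52 (0.36 ± 0.05, adjusted p = 0.000971), without overlap. Smad5 was not called (0.15 ± 0.05, adjusted p = 0.0929). Inhba was lower at 0.585 to 0.815 CPM against 1.18 to 1.43 (−1.01 ± 0.18, adjusted p = 0.00514).

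Of Nodal and its Lefty inhibitors 1 was called. Lefty1 was higher at 16.3, 12.7 and 11.3 CPM against 7.14, 8.11 and 9.87 (0.65 ± 0.19, adjusted p = 0.0497). Lefty2 measured 13, 10.6 and 8.66 CPM against 6.22, 6.72 and 8.86 (0.54 ± 0.17, adjusted p = 0.0684), and Nodal 10.9, 10.9 and 9.45 against 7.19, 7.6 and 7.59 (0.46 ± 0.13, adjusted p = 0.0501). Only Lefty2 overlapped between the lines among these 3. Nodal was called under 7 alternative settings, DESeq2 among them (adjusted p = 0.0122 to 0.0474). Id1 was not called (42.4 to 55.7 CPM against 51.8 to 62.8; −0.14 ± 0.12, adjusted p = 0.503). The wider list had 10 genes called higher and 3 lower of 52 tested. The 3 with the smallest adjusted p were ligands: Gdf2, also known as BMP9 (13.4 against 5.11 CPM; 1.36 ± 0.17, adjusted p = 0.000739), Gdf10 (11.5 against 4.55; 1.31 ± 0.17, adjusted p = 0.000813) and Bmp10, a ligand of the developing heart (8.97 against 4.93; 0.84 ± 0.12, adjusted p = 0.002).

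The day 10 BMP calls rested on few libraries. Bmp4 lost its call without replicate 1 or 2 of Quaking KO or replicate 2 of wild type (−0.26 to −0.33, adjusted p = 0.0766 to 0.0906), Bmp7 without replicate 1 or 2 of Quaking KO or replicate 3 of wild type (−0.25 to −0.28, adjusted p = 0.0651 to 0.104), and Bmp2 without any library but replicate 3 of wild type (−0.23 to −0.36, adjusted p = 0.069 to 0.153). Lefty1 lost its call without replicate 1 or 2 of either line (0.50 to 0.70, adjusted p = 0.0958 to 0.164). Lefty2 gained one without replicate 3 of Quaking KO or of wild type (0.67 and 0.71, adjusted p = 0.0354 and 0.0339). Heart muscle markers summed to 272 to 502 CPM in Quaking KO against 856 to 887 (5 of 6 called lower) and extraembryonic endoderm markers to 792 to 958 against 1087 to 1296 (4 of 8 lower); their part was not tested.

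The Quaking KO difference from wild type was itself compared between days with an interaction term. From day 0 to day 3 it rose for 6 members and fell for 6 of 46 (9.45% and 6.45% of all genes, 15.9% in all). Skil went from −0.64 at day 0 to 0.08 at day 3 (change 0.72 ± 0.05, adjusted p = 6.99e-08), with Quaking KO at 243, 237 and 242 CPM on day 3 against 232, 228 and 220. Lefty1 went from lower to higher (change 0.84 ± 0.14, adjusted p = 0.000544), and Acvr1b from 0.26 to −0.07 (change −0.33 ± 0.06, adjusted p = 0.000749). From day 3 to day 10 the difference rose for 4 members and fell for 0 of 46 (2.03% and 1.55% of all genes, 3.58% in all). They were Cer1 (2.91 ± 0.60, adjusted p = 0.0151), Bmp2 (0.85 ± 0.20, adjusted p = 0.027), Tgfb2 (0.71 ± 0.17, adjusted p = 0.0325) and Smad5 (0.30 ± 0.07, adjusted p = 0.0348). The Smad5 call was lost when any single day 3 library was left out, when some of day 10 were, and without the low-count filter. With replicate 3 of Quaking KO at day 3 left out, edgeR called none of the 46, with 13 at an unadjusted p under 0.05, and with all libraries DESeq2 called 10.

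**Figure D4:**
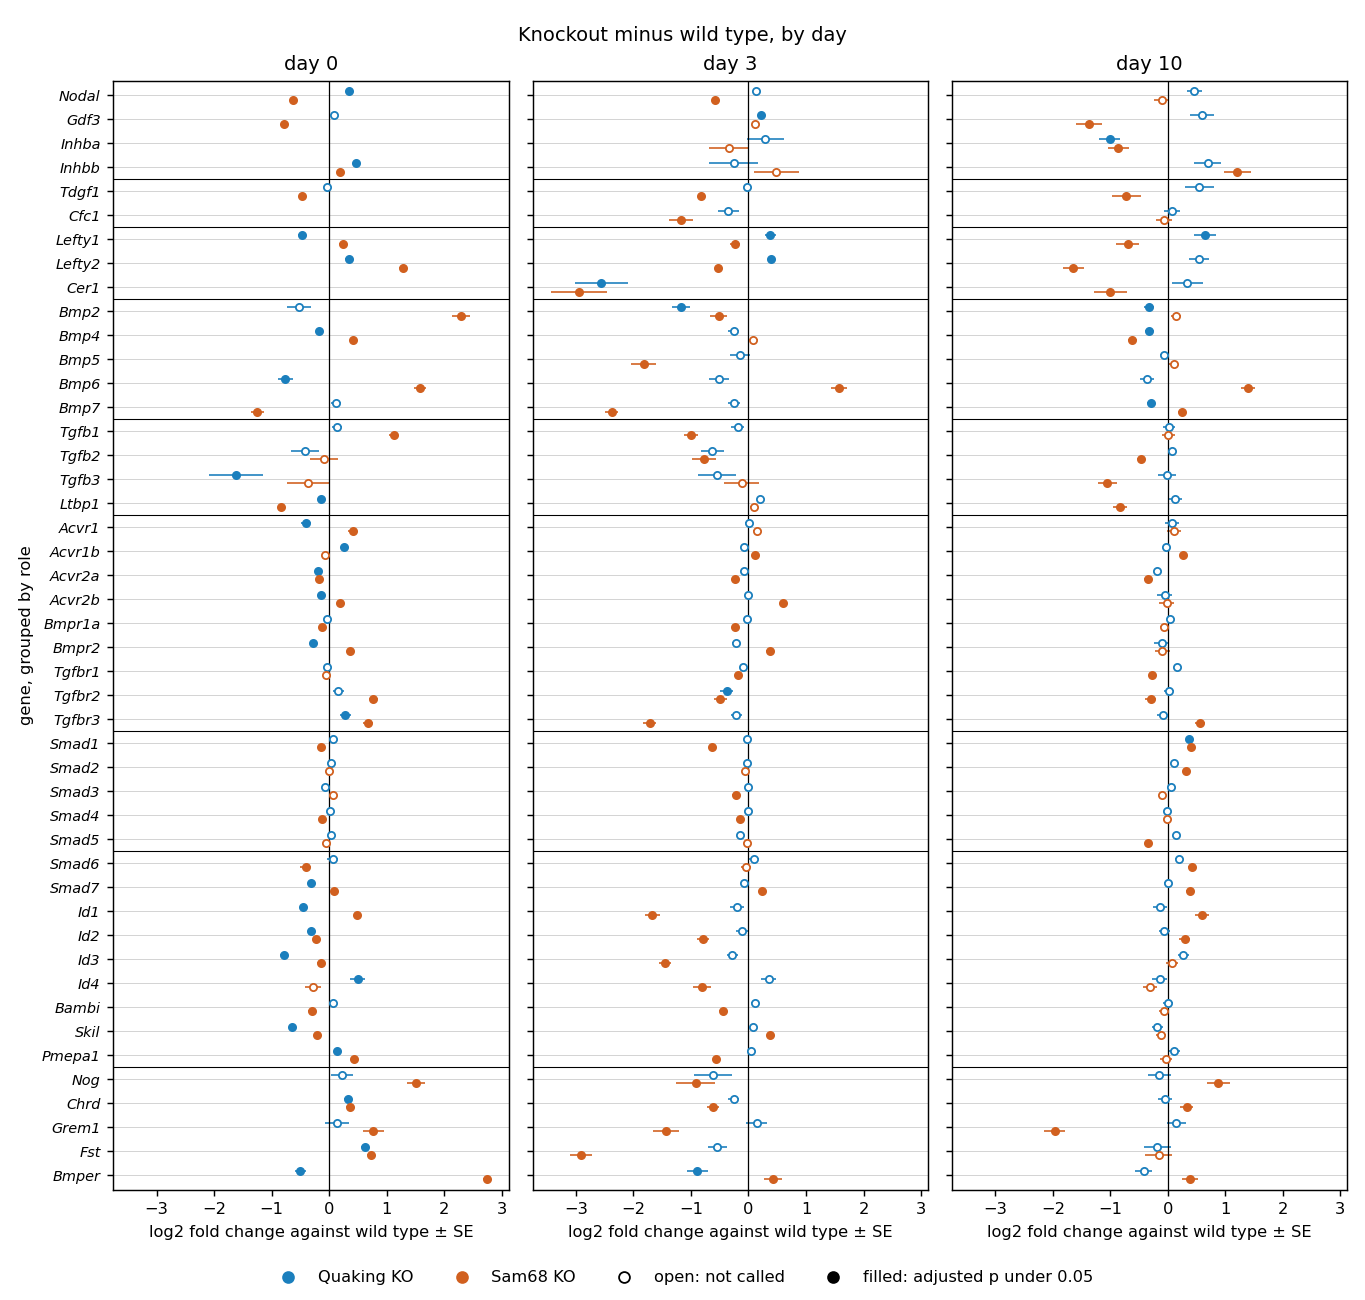
Log2 fold change against wild type ± SE (horizontal axis) of each member tested, grouped by role, in 3 panels for days 0, 3 and 10. Blue points are Quaking KO and orange points the line labelled Sam68 KO; filled points have an adjusted p under 0.05. At day 3, 7 Quaking KO points are filled, with Cer1 (−2.56) and Bmp2 (−1.17) past 2-fold, and 29 Sam68-labelled points are filled to the left of 0 on that day.

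The libraries labelled Sam68 KO differed from wild type in most genes tested at day 0, and the pathway was near that share (81% of members tested). Of 42 members tested 20 were called higher and 14 lower, where 36.5% of all genes were called higher and 37.9% lower (74.4% in all), and the median was 0.04 against −0.01 over all genes. Nodal, Gdf3 and Tdgf1 were lower, Inhbb was higher (93.1 to 93.8 CPM against 84.3 to 89.4; 0.18 ± 0.03, adjusted p = 2.33e-05), and both Lefty genes were higher. Nodal measured 43.8, 41.7 and 41.3 CPM against 67.7, 68.4 and 73 (−0.63 ± 0.04, adjusted p = 9.46e-12). Gdf3 measured 60, 61.2 and 62.1 CPM against 109, 110 and 115 (−0.78 ± 0.03, adjusted p = 1.18e-13), and Tdgf1 573, 577 and 570 against 828, 853 and 855 (−0.47 ± 0.03, adjusted p = 1.54e-11). Each of the 3 was separated from wild type by a wide gap. Lefty2 was higher at 45.4, 51.8 and 55.1 CPM against 19.1, 22.5 and 24.4 (1.29 ± 0.07, adjusted p = 7.2e-12). Lefty1 was called higher by less (0.24 ± 0.07, adjusted p = 0.00578), with overlapping values of 43.3, 50.8 and 50 against 38.2, 42.1 and 49.4, and was not called by DESeq2 (adjusted p = 0.0574).

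At day 0, 3 of the 4 BMP ligands tested and all 5 members grouped as BMP antagonists (Nog, Chrd, Grem1, Fst and Bmper) were higher. Antagonists of the wider list went both ways, with 2 called higher and 3 lower of 7 tested. Bmp4 measured 88.6, 88.3 and 92.2 CPM against 71.8, 69.4 and 71.8 (0.42 ± 0.03, adjusted p = 6.36e-10). Bmp2 measured 2.81, 2.85 and 2.66 against 0.578, 0.552 and 0.67 (2.29 ± 0.15, adjusted p = 6.33e-11), and Bmp6 5.2, 6.32 and 5.77 against 2.13, 2.04 and 1.98 (1.58 ± 0.10, adjusted p = 6.51e-11). No library overlapped. Bmp7 was lower (1.21 to 1.46 CPM against 3.29 to 3.6; −1.25 ± 0.11). Among the antagonists Bmper stood at 18.1, 17.2 and 16.3 CPM against 2.68, 2.74 and 2.76 (2.74 ± 0.07, adjusted p = 2.89e-16), the smallest adjusted p of any member in any knockout comparison. Of the Id genes Id1 was higher (75.5, 81 and 81 CPM against 58.8, 57.6 and 64.9; 0.48 ± 0.05, adjusted p = 1.06e-07), while Id2 and Id3 were lower (−0.22 ± 0.05 and −0.15 ± 0.06). The Id3 call was lost without 1 or more single libraries.

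Tgfb1 was higher at 5.54, 6.14 and 5.66 CPM against 2.91, 2.74 and 2.84 (1.12 ± 0.08, adjusted p = 5.6e-10), and Ltbp1, which stores it, lower at 6.07, 5.76 and 5.96 against 11.2, 11.6 and 10.8 (−0.83 ± 0.06, adjusted p = 3.03e-10). Among receptors 5 of 9 were called higher, with Tgfbr2 (0.77 ± 0.08) and Tgfbr3 (0.67 ± 0.09) farthest, and 2 lower. Of the other pathway genes 20 were called higher and 15 lower of 45 tested. The chordin protease Bmp1 (20.9 against 9.38 CPM; 1.24 ± 0.05) and the BMP-binding Crim1 (30.1 against 12.9; 1.31 ± 0.06) were higher, and Twsg1, a partner of chordin, was lower (32.1 against 52; −0.61 ± 0.04). Extraembryonic endoderm markers summed to 360 to 372 CPM in these libraries against 73 to 78.5 (5 of 5 tested called higher), and core pluripotency markers to 1109 to 1126 against 1592 to 1709 (3 of 3 lower); their part was not tested. Each day was scaled on its own for the test, so ratios of the CPM given here sit slightly lower than the log2FC at day 0; for Nodal they were −0.72 and −0.63.

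At day 3 the Sam68-labelled libraries had 29 members called lower and 7 higher of 46 tested, where 37.1% of all genes were called lower and 36% higher (73.1% in all). The median member log2FC was −0.40, against −0.00 over all genes. Nodal, both coreceptors and all 3 inhibitors were called lower. Nodal measured 94.9, 100 and 106 CPM against 147, 155 and 158 (−0.58 ± 0.05, adjusted p = 3.35e-08), and Tdgf1 379, 383 and 410 against 671, 730 and 714 (−0.82 ± 0.05, adjusted p = 3.31e-09). Lefty2 measured 75.2, 71.8 and 70.2 against 111, 106 and 102 (−0.53 ± 0.05, adjusted p = 2.16e-07). The groups did not overlap for these genes. Lefty1 was called lower by a narrower margin, 165, 161 and 154 CPM against 222, 166 and 189 (−0.24 ± 0.09, adjusted p = 0.0279). That call was lost without replicate 2 or 3 of the Sam68-labelled line or replicate 1 of wild type (−0.14 to −0.24, adjusted p = 0.0574 to 0.133), and by DESeq2 (adjusted p = 0.0878). Gdf3, lower at day 0, was not called (0.12 ± 0.05, adjusted p = 0.062).

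All 4 Id genes were called lower. Id1 measured 5.78, 5.94 and 6.85 CPM against 16.1, 22.3 and 22 (−1.67 ± 0.13, adjusted p = 1.34e-08), and Id3 13.3, 14.1 and 14.9 against 35.2, 38.6 and 44 (−1.45 ± 0.10, adjusted p = 3.51e-09). Id2 and Id4 were lower by less (−0.79 ± 0.10 and −0.81 ± 0.15). Pmepa1, a TGF-beta and Nodal target that blunts the signal, measured 18.6, 17.2 and 18.7 against 26.5, 28 and 28.1 (−0.57 ± 0.05, adjusted p = 8.99e-08). Skil and Smad7 were called higher (0.37 ± 0.04 and 0.23 ± 0.05). Bmp4 was not called, at 4.5, 4.37 and 4.43 CPM against 4.02, 4.72 and 4.07 (0.08 ± 0.09, adjusted p = 0.428). Bmp7 was lower at 1.51, 1.5 and 1.83 CPM against 8, 9.52 and 8.22 (−2.38 ± 0.12, adjusted p = 1.36e-10), and Bmp6 higher at 2.69, 2.77 and 2.68 against 0.94, 0.793 and 1.07 (1.57 ± 0.14, adjusted p = 6.96e-08). The 2 ligands were separated from wild type in opposite directions.

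Fst showed the widest gap of any member at 1 CPM or more, 27.3, 37.2 and 46 CPM against 229, 334 and 285 in wild type (−2.91 ± 0.19, adjusted p = 3.16e-09). Of the other antagonists Nog, Chrd and Grem1 were called lower and Bmper higher; the Nog and Bmper calls were lost without single libraries. Receptors went both ways, with 5 of 9 called lower and 3 higher. Tgfbr3 measured 19.4, 23.2 and 23.8 CPM against 67, 85.6 and 70.7 (−1.72 ± 0.11, adjusted p = 2.46e-09). Acvr2b (0.60 ± 0.06, adjusted p = 3.97e-07), Bmpr2 and Acvr1b were higher, and the Acvr1b call was lost without single libraries. Smad1, Smad3 and Smad4 were lower (−0.63 ± 0.06, −0.22 ± 0.06 and −0.15 ± 0.04), and Smad2 and Smad5 were not called. Of the other pathway genes 17 were called higher and 10 lower of 46 tested. Foxh1 (67.8 against 98.1 CPM; −0.51 ± 0.05) and Fstl1 (59.1 against 81.9; −0.44 ± 0.04) were lower, and Crim1 was higher (24.1 against 15.2; 0.70 ± 0.07).

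Primitive streak markers summed to 72.1 to 117 CPM in the Sam68-labelled libraries of day 3 against 539 to 813 in wild type (6 of 6 called lower, none at 0), and extraembryonic endoderm markers to 762 to 861 against 241 to 264 (5 higher, 1 lower). Their part in the member differences was not tested.

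By day 10 the Sam68-labelled libraries were called higher for 14 members and lower for 15 of 46 tested (22.8% and 27.8% of all genes, 50.6% in all), with a median of −0.06 against −0.04 over all genes. Nodal was not called, at 6.7, 8.98 and 5.87 CPM against 7.19, 7.6 and 7.59 (−0.11 ± 0.13, adjusted p = 0.52), and its sign turned without replicate 3 of the Sam68-labelled line (0.04, adjusted p = 0.826). Its inhibitors were all called lower. Lefty2 measured 2.64, 2.71 and 1.93 CPM against 6.22, 6.72 and 8.86 (−1.64 ± 0.19, adjusted p = 2.92e-05), with a clear gap. Lefty1 measured 4.82, 7.09 and 4.17 against 7.14, 8.11 and 9.87 (−0.70 ± 0.20, adjusted p = 0.0116), and its call was lost without replicate 1 or 3 of the Sam68-labelled line or replicate 3 of wild type (−0.52 to −0.61, adjusted p = 0.0538 to 0.0579). The calls of Cer1 and Tdgf1 were likewise lost without single libraries of either line.

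BMP ligands split by day 10. Bmp4 was lower at 35.5, 29.6 and 32.5 CPM against 46.4, 50.8 and 47.4 (−0.62 ± 0.08, adjusted p = 6.59e-05). Bmp6 was higher at 12.4, 13.6 and 11.9 CPM against 4.66, 5.28 and 3.98 (1.39 ± 0.12, adjusted p = 3.8e-06), as it was at days 0 and 3. Grem1, an antagonist of Bmp2 and Bmp4, was lower at 0.758, 0.655 and 1.15 CPM against 3.03, 3.12 and 3.52 (−1.97 ± 0.18, adjusted p = 7.14e-06). Bmp4, Bmp6 and Grem1 were without overlap. Of the 5 BMP antagonists Nog (0.88 ± 0.20, adjusted p = 0.00321), Chrd and Bmper were called higher, and Fst was not called. The Chrd and Bmper calls were lost without single libraries. Smad1 was higher at 71.6, 72.5 and 72.8 CPM against 52, 53.4 and 52 (0.41 ± 0.05, adjusted p = 3.65e-05), and Smad5 lower at 120, 123 and 124 against 148, 149 and 151 (−0.34 ± 0.05, adjusted p = 0.000197). Id1, far below wild type at day 3, was higher at 95.8, 83.9 and 82.3 CPM against 52.1, 62.8 and 51.8 (0.60 ± 0.12, adjusted p = 0.00147). None of the 9 feedback targets was called lower by edgeR, where Id4 had an unadjusted p under 0.05, and 4 were called higher.

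Tgfb2, Tgfb3 and the matrix anchor Ltbp1 were lower, and Tgfb1 was not called (0.01 ± 0.11, adjusted p = 0.97). Tgfb2 measured 49.9, 50.8 and 48 CPM against 63.7, 63.8 and 68.9 (−0.46 ± 0.07, adjusted p = 0.000364), and Tgfb3 16.7, 19.8 and 19.3 against 29.5, 37.5 and 44.2 (−1.05 ± 0.16, adjusted p = 0.000275). Ltbp1 measured 93.7, 96.2 and 112 against 176, 163 and 176 (−0.83 ± 0.12, adjusted p = 0.000239). The wild-type libraries were above all Sam68-labelled ones for the 3 genes. Tgfbr3 was higher at 217, 235 and 214 CPM against 158, 131 and 144 (0.56 ± 0.09, adjusted p = 0.000327). Of the other pathway genes 12 were called higher and 14 lower of 52 tested: Lrrc32, which presents latent TGF-beta on the cell surface, was lower (5.36 against 13.2 CPM; −1.35 ± 0.10), and Bmp10 (13.4 against 4.93; 1.38 ± 0.12) and Crim1 (119 against 47.2; 1.27 ± 0.12) were higher. Connective tissue markers summed to 2469 to 3924 CPM against 5944 to 7738 (5 of 6 called lower) and heart muscle markers to 1820 to 1948 against 856 to 887 (5 of 6 higher). Endothelium and blood markers summed to 193 to 248 CPM against 443 to 493 (5 of 6 lower), primitive streak markers to 10.4 to 22.8 against 28.6 to 40.1 (6 of 6 lower) and core pluripotency markers to 37.3 to 50.7 against 68.2 to 84.5 (3 of 3 lower). Naive-state markers summed to 253 to 299 against 84.6 to 99.4 (3 of 6 higher, 2 lower). Their part in the member differences was not tested. Replicate 1 of wild type stood above its fellows at day 10 for Bmpr2 (196 CPM against 134 and 138) and Acvr2b (59.4 against 41.6 and 39.9). Without it Acvr2b, Acvr1, Bmp2 and Tgfb1 gained calls, and Tdgf1, Id2 and Bmper lost theirs.

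The Sam68-labelled difference moved between days for most members. From day 0 to day 3 it rose for 7 members and fell for 21 of 46 (18% and 15.9% of all genes, 33.8% in all), with a median of −0.29 against 0.02 over all genes. Lefty2 went from 1.29 above wild type to 0.53 below (change −1.80 ± 0.09, adjusted p = 1.53e-11). Id1 went from 0.48 to −1.67 (change −2.13 ± 0.12, adjusted p = 5.82e-11), and Tgfbr3 from 0.67 to −1.72 (change −2.37 ± 0.14, adjusted p = 1.29e-10). These 3 changed sign. All 5 BMP antagonists fell against wild type over this interval. From day 3 to day 10 the difference rose for 23 and fell for 7 of 46 (30.3% and 23.9% of all genes, 54.2% in all). Id1 returned to 0.60 (change 2.35 ± 0.17, adjusted p = 9.91e-08), Tgfbr3 to 0.56 (2.36 ± 0.14, adjusted p = 2.1e-08), and Bmp7 went from −2.38 to 0.24 (2.70 ± 0.13, adjusted p = 2.77e-09).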

How the data were processed

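Total RNA, depleted of ribosomal RNA, was sequenced from 27 libraries. The deposited values were whole-number read counts per gene, made by the authors with bcl2fastq 2.17.1.14 and STAR 2.5.3a on GRCm38 (mm10) per the submitters' processing notes. For the counting program, its strand setting and the annotation, the labels and notes read here name nothing (not given in the sources used here), so overlapping and antisense genes may share reads. Of 51826 gene identifiers 51633 (99.6%) matched GENCODE mouse release 21. The members and lists were chosen with earlier results of these data known.

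Counts were tested with edgeR 4.0.16 in R 4.3.3 (quasi-likelihood test, TMM scaling, low counts removed with a minimum count of 10 and a minimum total of 15, Benjamini-Hochberg adjustment over all genes tested). Each day was fitted on its 9 libraries, the wild-type time course on 9 and each change of a difference on the 12 libraries of its 4 groups, and the steps were tested on simulated data with 200 changed genes. No offset was added to printed CPM. Alternatives were RLE scaling, DESeq2 1.42.0, no low-count filter, a mean of at least 1 CPM, a replicate block, protein-coding genes only, only the 6 libraries compared, and leaving out each library in turn. In each comparison up to 10 called members with the smallest adjusted p and a mean of at least 1 CPM were given in full, with Nodal, Lefty1, Lefty2, Bmp4 and Id1 always (up to 3 for changes of a difference and for the wider list). Other members named were chosen after their values were seen. Same-numbered libraries deviated together in every pair for Quaking KO against wild type at day 3 (r = 0.54, 0.23 and 0.17), so the number was taken to pair those libraries, and in no other comparison of 2 groups. The main fit of that comparison did not include the number, which entered only as the block alternative.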

Additional observations from a re-analysis of the deposited data

Results flagged for a closer look

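The knockout difference from wild type changed between days for the following members, each by an interaction term in edgeR's quasi-likelihood test with 3 libraries per group (log2 scale). For Quaking KO, Lefty1 (0.84), Skil (0.72) and Acvr1b (−0.33) changed from day 0 to day 3. From day 3 to day 10 Cer1 (2.91), Bmp2 (0.85) and Tgfb2 (0.71) changed. Those 3 calls were lost without replicate 3 of Quaking KO at day 3, and the Bmp2 and Tgfb2 calls also without other single libraries (Bmp2 0.73 to 0.90, adjusted p = 0.0583 to 0.0919; Tgfb2 0.61 to 0.75, adjusted p = 0.0508 to 0.117).

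For the line labelled Sam68 KO, Lefty2 (−1.80), Tgfbr3 (−2.37) and Id1 (−2.13) changed from day 0 to day 3. From day 3 to day 10 Bmp7 (2.70), Tgfbr3 (2.36) and Id1 (2.35) changed. Both lines were set against the same wild-type libraries, and the 2 intervals of a line share its day 3 libraries.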

How the results depend on the processing

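Of 125 results for named genes 107 kept their direction and their side of the threshold under each alternative and 18 did not; the cause was not tested. The only sign that turned was that of Nodal, Sam68-labelled line at day 10, which ranged from −0.27 without replicate 2 to 0.04 without replicate 3 of that line and was called under none. Member counts moved by over 1.5 times in the Quaking KO comparisons only. At day 3, 7 members became 14 without the low-count filter and 14 with the replicate block, and DESeq2 gained 4 members. With single libraries left out the count ran from 4 (without wild type replicate 2) to 12 (without wild type replicate 1). At day 10, 6 became 11 with DESeq2 and 2 (without Quaking KO replicate 2) to 8 with single libraries left out. For the change from day 3 to day 10, 4 became 8 without the filter, 7 with a mean of at least 1 CPM, 8 with the replicate block, 10 with DESeq2, and 0 (without Quaking KO day 3 replicate 3) to 8 (without wild type day 10 replicate 3).

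Over all genes these 3 counts were 1381 (749 to 1641 with single libraries left out), 2392 (1399 to 3139) and 753 (370 to 1088). Under the settings that left out no single library they ran from 1002 to 1891, 1724 to 2910 and 721 to 1338. Outside Quaking KO at day 3, libraries share only a replicate number. At day 10 the block also called 6 Quaking KO members, but not the same ones. Lefty1 and Bmp2 lost their calls (adjusted p = 0.0731 and 0.0769 by edgeR), and Nodal and Bmper gained them. RLE scaling moved the median of all genes by at most 0.052 and keeping protein-coding genes only by at most 0.065, while printed CPM ratios, scaled over all libraries, lay lower than the fitted values for the Sam68-labelled line at day 0 (Nodal −0.72 against −0.63). Members under 1 CPM, such as Cer1 at day 3, rest on few reads.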
